A study of Arabidopsis thaliana with 6 samples.

Results

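AT2G45180, AT2G10940 and AT1G48750 are 3 Arabidopsis thaliana genes of the lipid transfer protein superfamily, each read by 1 probe set of the ATH1 array. They were chosen by their family and by high signal in control seedlings, with results of these data already known. They are 3 of 13286 genes that could be named on the array, and all 3 passed the filter on low signals. Because control signal chose them, their differences from control are given below as a description without p-values. A test is given for them only for the difference between the induced groups. Control arrays enter it through the filter on mean signal and the shared estimate of spread with its intensity trend.

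Proteins of this superfamily are small and secreted, and a conserved pattern of cysteines holds them in a fold with a hydrophobic cavity that can take up a lipid. Type 1 and type 2 lipid transfer proteins consist of little more than this fold, whereas hybrid proline-rich proteins carry a proline-rich stretch before it. Many members are active in the leaf epidermis, where they are associated with the cuticle, and others act in defence against pathogens.

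The study asked how nuclear genes respond once chloroplasts are kept from dividing. Whole seedlings with 4 rosette leaves were harvested at 14 days after growth in constant light, with 2 arrays in each of 3 groups. Control seedlings (background Ler-0) carried the empty vector PER-10 and were sprayed at day 13 with 2 µM estradiol, the inducer, 24 h before harvest. Temporal induction seedlings (Ler-1) had 1 spray at the same age, and prolonged induction seedlings (Ler-1) were sown on 2 µM inducer and sprayed with it every 24 h. All 3 groups are labelled as T-DNA lines. All received the inducer, which the labels write as 17-B-estradiol for the control and as 7-B-estradiol elsewhere. The sources used here do not give the inhibiting transgene, the number of lines behind a group or any pooling of plants. No induced line without inducer was among the groups, so line, background and induction cannot be told apart. Nor was an empty-vector group sown on inducer and sprayed every 24 h. Longer inducer exposure and repeated spraying therefore cannot be told apart from induction in either comparison of the prolonged group. The labels do not say that the 2 arrays of a group come from separate cultures, so the p-values speak only of the spread among these samples, and that spread may be technical.

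Signals are the authors' MAS5 values on a linear scale, scaled to the same trimmed mean (100.01) on all 6 arrays. Median signals were 53.1 to 58.8 and the highest signals 23166 to 38396. RNA degradation raises the 3' over 5' signal ratio of long control transcripts, which here spanned 1.82 to 2.67 for GAPDH and 1.58 to 1.87 for ubiquitin. The actin ratio was 4.19 on each control array, against 6.14 and 4.45 in the prolonged group and 3.19 and 5.22 in the temporal group. RCA (AT2G39730), the gene for Rubisco activase and the only gene with a named probe set of 12 listed for leaf mesophyll, read 13024 to 14256 in control. PYK10 (AT3G09260), a root β-glucosidase gene, read 4006 to 4660 there, so both leaf and root RNA were in the samples, and the organ in which the chosen genes were expressed was not measured. None of 7 listed epidermis markers had a named probe set. A listed gene is called measured here where a probe set carried its symbol alone. Another 8730 probe sets carried no symbol and 503 carried several, so the unmeasured genes may still be on the array. In whole seedlings, fewer cells of a type and less RNA per cell cannot be told apart.

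Among the hybrid proline-rich genes, AT2G45180 belongs to the short form, with a short proline-rich stretch, and is also known as DRN1, a gene needed for full resistance to several pathogens. Its signal was 5210 and 5399 in control. The prolonged arrays read 8094 and 7082, and the temporal arrays 7853 and 8154. All 4 induced arrays were above both control arrays, and the induced groups overlapped. The group means were 5304 ± 133 (SD, n = 2 arrays), 7588 ± 716 and 8003 ± 213, so the induced means stood at 143% and 151% of control. On the log2 scale prolonged induction differed from control by 0.51 ± 0.13 (SE of the limma fit) and temporal induction by 0.59 ± 0.13. AT2G45180 was among the brightest probe sets on every array, ranking 51st and 39th of 22746 in control and 21st to 23rd on the induced arrays. A rank among probe sets reflects probe affinity as well as transcript level. Its brightest reading was well below the highest signal of any array.

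AT2G10940 is the gene of a long hybrid proline-rich protein, in which the proline-rich stretch makes up much of the chain. Control arrays read 1812 and 1675, prolonged arrays 889 and 772, and temporal arrays 1053 and 1171. The 3 groups did not overlap: control was highest, temporal induction lay between, and prolonged induction was lowest. The means were 1744 ± 96.7, 830.5 ± 83.1 and 1112 ± 83.6 (SD, n = 2 arrays each), so that signal was at 47.6% of control after prolonged and 63.8% after temporal induction. The log2 differences from control were −1.07 ± 0.13 SE and −0.65 ± 0.13 SE. It ranked 218th and 249th in control, 538th and 566th in the prolonged group and 397th and 357th in the temporal group.

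AT1G48750, a gene for a type 2 lipid transfer protein, read 572 and 640 in control. Prolonged arrays read 1523 and 1269, and temporal arrays 965 and 929. Again the 3 groups did not overlap, here with control lowest and prolonged induction highest. The means were 606 ± 47.9, 1396 ± 179.8 and 947 ± 26.1 (SD, n = 2 arrays each), or 230% and 156% of control in the induced groups. The log2 difference from control was 1.20 ± 0.14 SE after prolonged and 0.65 ± 0.14 SE after temporal induction. It ranked 901st and 782nd in control, 263rd and 291st in the prolonged group and 440th and 471st in the temporal group.

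**Figure D1:**
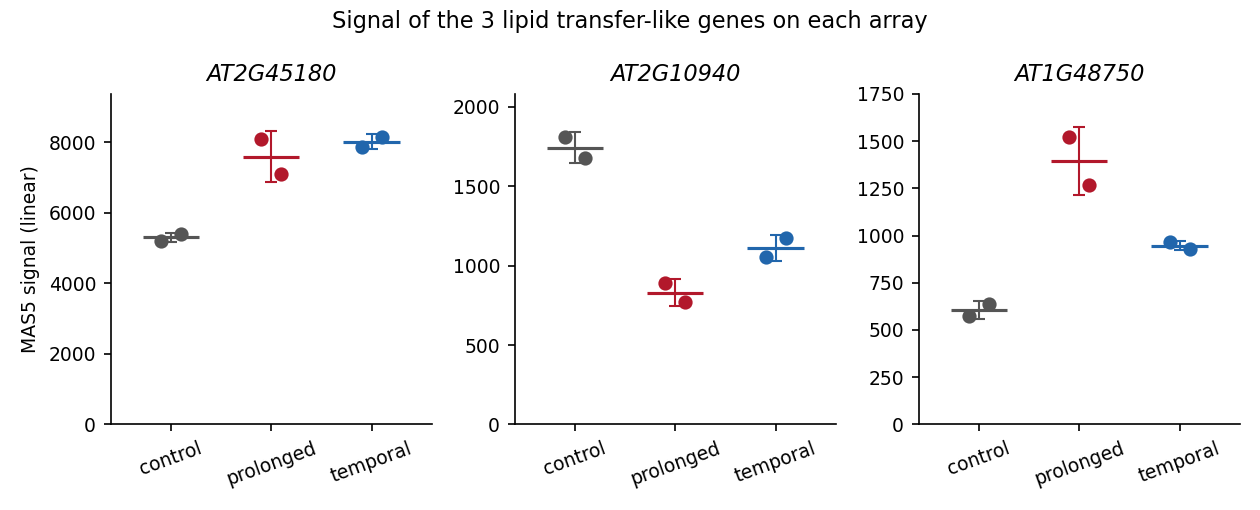
MAS5 signal (linear, arbitrary units, each axis from 0) of AT2G45180, AT2G10940 and AT1G48750 in control, prolonged and temporal induction. Points are the 2 arrays of a group, lines the mean and error bars the SD. AT2G45180 and AT1G48750 are higher on all 4 induced arrays than on both control arrays, and AT2G10940 is lower.

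The directions were thus not common to the 3 genes. Each gene lay to the same side of control after both inductions, AT2G45180 and AT1G48750 above and AT2G10940 below. Both inductions are set against the same 2 control arrays, so the 2 differences of a gene are not independent. For all 3 genes the arrays of each induced group lay wholly to one side of the controls. Such separation is frequent here: it was found for 47.7% of 15922 tested probe sets between prolonged induction and control, and for 46.3% between temporal induction and control. Since control signal chose the genes, nothing is read from this count. The share of probe sets in which all 3 groups separate, as for AT2G10940 and AT1G48750, was not counted, and nothing is read from that order either. Within a group, the higher array exceeded the lower by at most 1.20 times (AT1G48750, prolonged induction). In each comparison with control, the gap between the groups exceeded the widest range within a group. For AT2G45180 after prolonged induction the gap was 0.39 and the widest range 0.19 on the log2 scale. The share of probe sets with such a gap was not counted, so nothing is read from it.

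**Figure D2:**
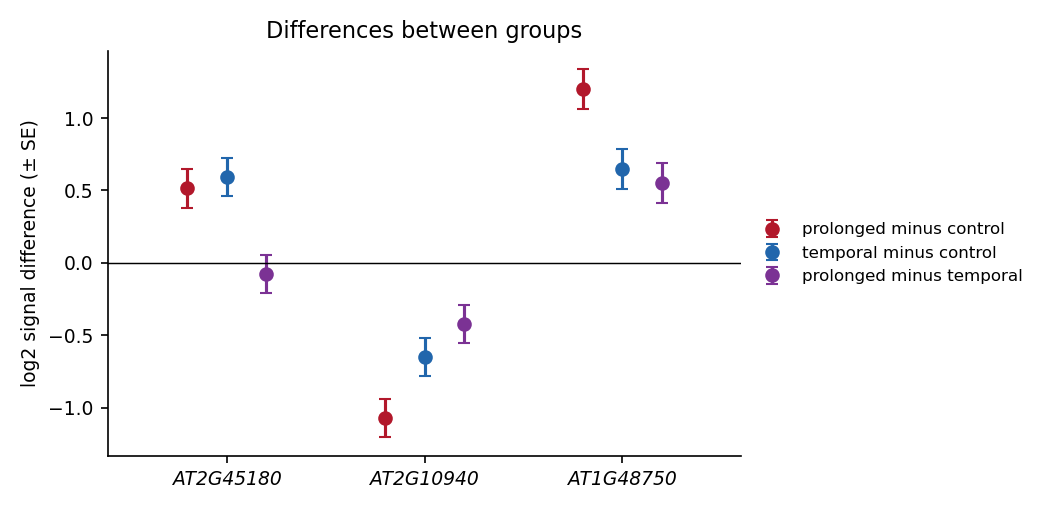
Log2 signal difference (y axis) between groups for each gene, with the standard error of the limma fit as error bars. The differences from control run from −1.07 (AT2G10940, prolonged) to 1.20 (AT1G48750, prolonged), and the prolonged minus temporal difference of AT2G45180, −0.08, is the only one whose error bar crosses 0.

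The comparison of prolonged with temporal induction asks whether inducer from sowing gives another level than 24 h of it. AT1G48750 was 0.55 ± 0.14 SE higher on the log2 scale after prolonged induction (95% interval 0.25 to 0.86, unadjusted p = 0.00204), and AT2G10940 was lower by −0.42 ± 0.13 SE (interval −0.71 to −0.13, unadjusted p = 0.00853). Neither passed after adjustment over all tested probe sets (limma, Benjamini-Hochberg adjusted p = 0.421 and 0.644). AT2G45180 differed by −0.08 ± 0.13 SE (interval −0.37 to 0.21, adjusted p = 1.00), so a difference of up to 0.37 in size lies within its interval. In all, 0 of the 3 genes passed in limma at an adjusted p of 0.05, where 14 of 15922 probe sets, or 0.0879%, passed. An unadjusted p under 0.05 was found for 2 of the 3. The share of all probe sets at that unadjusted threshold was not counted, so nothing is read from the 2. The arrays of the induced groups did not overlap for AT1G48750 and AT2G10940, as for 34.9% of tested probe sets. None of the 3 genes passed under any of 15 other settings. Adjusted p ranged from 0.216 to 1.00 for AT1G48750, from 0.376 to 1.00 for AT2G10940 and from 0.879 to 1.00 for AT2G45180. The sign of AT2G45180 turned with cyclic loess and when prolonged replicate 2 was left out.

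The ratio of 2 genes on the same array does not change when an array is rescaled as a whole. Its level and sign depend on the probes and carry no meaning, so only differences between arrays are to be read from the values below. The log2 ratio of AT1G48750 to AT2G10940 was −1.66 and −1.39 in control, 0.78 and 0.72 after prolonged, and −0.13 and −0.33 after temporal induction. The groups did not overlap, and the ratio was 2.27 higher than control after prolonged and 1.30 higher after temporal induction, with an SD within groups of 0.04 to 0.19. For AT2G45180 over AT2G10940 it was 1.52 and 1.69 in control, 3.19 and 3.20 after prolonged, and 2.90 and 2.80 after temporal induction, again without overlap. AT1G48750 over AT2G45180 read −3.19 and −3.08 in control and −3.02 and −3.13 after temporal induction, which overlapped, and −2.41 and −2.48 after prolonged induction. The 2 genes with higher signal were therefore in a similar ratio in control and temporal arrays, differing by 0.05 in the means, and in a ratio higher by 0.69 than control on the prolonged arrays. These values are a description, since the genes were chosen with their signals known. For both ratios to AT2G10940 the separation from control was fixed by the opposite directions given above, so nothing is read from it.

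**Figure D3:**
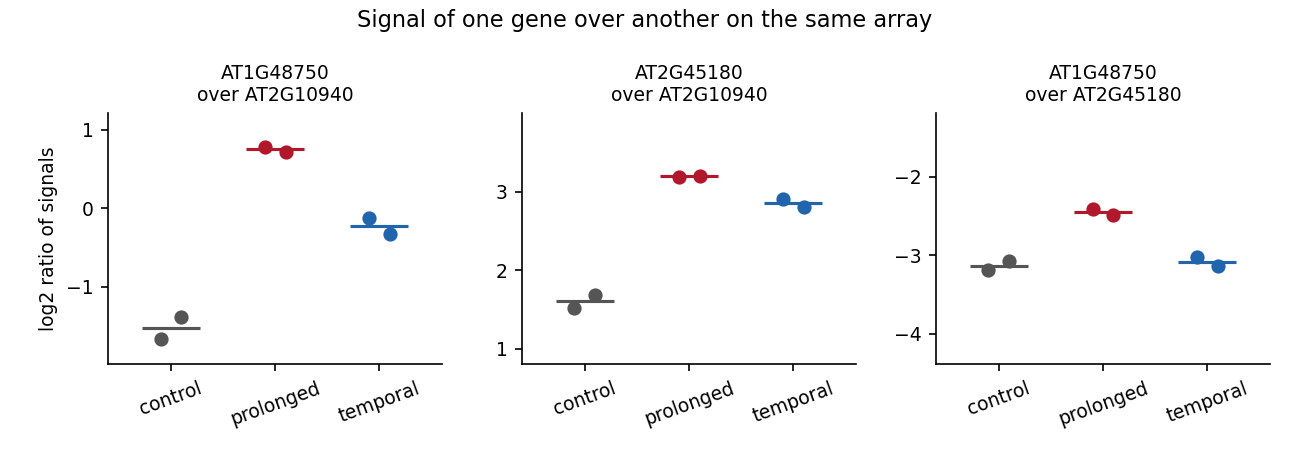
Log2 ratio of the signals of 2 genes on the same array (y axis, each panel spanning the same height), for the 2 arrays of each group, with lines at the means. Both ratios to AT2G10940 are lowest in control and highest after prolonged induction, and AT1G48750 over AT2G45180 stands apart on the 2 prolonged arrays.

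Across the 6 arrays, the log2 signals of AT1G48750 and AT2G10940 had a Pearson r of −0.95, those of AT1G48750 and AT2G45180 of 0.82, and those of AT2G10940 and AT2G45180 of −0.80. The 6 arrays fall into 3 groups, so these correlations mainly repeat the group differences. Among 671 named probe sets in the top 10% of mean signal, the patterns most like AT2G45180 were those of AT5G19860 (r = 0.996), AT5G42090 (0.991) and AT2G46490 (0.991). AT5G19860 read 369 and 389 in control, 820 and 592 after prolonged, and 763 and 777 after temporal induction, the same order of groups as AT2G45180. Closest to AT2G10940 were AT1G60000 (r = 0.999), the plastid RNA polymerase subunit gene rpoC2 (0.997) and LrgB (AT1G32080; 0.997), which encodes the plastid glycolate and glycerate transporter. LrgB read 1114 and 1078 in control, 546 and 465 after prolonged, and 608 and 724 after temporal induction. AT1G13930 (r = 0.998), AT1G55840 (0.995) and AT2G36930 (0.990) were closest to AT1G48750, and AT1G13930 read 1153 and 1228 in control, 2218 and 1935 after prolonged, and 1691 and 1614 after temporal induction. With 671 candidates and 6 arrays, values this close to 1 are a ranking and no test.

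The rest of the superfamily was followed in lists of 98 further genes, of which 40 had a named probe set and 30 passed the filter on low signals. After prolonged induction 5 of the 30 rose and 3 fell (limma, adjusted p under 0.05), against 6.95% of all tested probe sets passing in either direction. Without control replicate 2, 5 rose and 0 fell. The median log2 difference of the 30 was 0.13, and that of all tested probe sets −0.02. After temporal induction 4 of the 30 rose and 0 fell, against 2.42% of all tested probe sets passing in either direction. An unadjusted p under 0.05 was found for 8 of the 30, and the share of all probe sets at that threshold was not counted. With temporal replicate 1 or temporal replicate 2 left out, fewer rose. Shares of all probe sets were not counted in fits with an array left out. The median of the 30 was 0.10 against 0.00 for all. Of the 30, 8 had at least 1 group with a geometric mean signal under 23.5, the filter's limit. They include AT4G12500, AT1G66850 and AT5G62080, whose control signal was under it (geometric means 22.2, 14.6 and 11.9) and which entered the test through the induced groups. All 3 are among the 8 that passed after prolonged induction, and AT4G12500 and AT5G62080 are among the 4 that passed after temporal induction. The lists were written with earlier results of these data known, so the counts are no independent support.

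In the short hybrid proline-rich list, which holds AT2G45180, 8 other genes were tested. AT4G12490 and AT4G12500, of a gene cluster that includes the defence gene AZI1, rose in both inductions. AT4G12490 read 208 and 212 in control, 1939 and 2028 after prolonged, and 554 and 507 after temporal induction. Its log2 difference from control was 3.24 ± 0.13 SE after prolonged (adjusted p = 2.70e-07) and 1.33 ± 0.13 SE after temporal induction (adjusted p = 0.000575). The other 6 did not pass in any of the 3 comparisons. AT4G12490 and AT4G12500 were higher after prolonged than temporal induction, by 1.90 ± 0.13 and 2.06 ± 0.28 SE (adjusted p = 0.000284 and 0.0180). The latter did not pass without any 1 of the 4 induced arrays (adjusted p = 0.101 to 0.290), and neither passed without the intensity trend (0.470 and 0.577).

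The long hybrid proline-rich list had 1 other tested gene, AT1G62500, and it rose in both inductions, in which AT2G10940 had lower signal than control. Its signal was 80.9 and 92.7 in control, 209.5 and 198 after prolonged, and 178 and 216 after temporal induction. It rose by 1.23 ± 0.21 SE on the log2 scale after prolonged (adjusted p = 0.00587) and 1.18 ± 0.21 SE after temporal induction (adjusted p = 0.0169). The latter did not pass without control replicate 1 (adjusted p = 0.0576) or without temporal replicate 1 or 2 (0.0969 and 0.193). The induced groups overlapped, as they did for AT2G45180.

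Of 3 other tested type 2 genes, AT3G18280 passed in no comparison. It read 423 and 363 in control, 418 and 355 after prolonged, and 329 and 278 after temporal induction. Its log2 difference from control was −0.02 ± 0.17 SE after prolonged (adjusted p = 0.962) and −0.37 ± 0.17 SE after temporal induction (adjusted p = 0.335). AT1G66850 rose after prolonged induction (adjusted p = 0.0218), from control arrays of 2.40 and 88.9 to 383 and 714. It did not pass without prolonged replicate 1 or 2 (adjusted p = 0.107 and 0.155), nor after temporal induction (0.0833, signals 307 and 297).

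The 3 genes that fell after prolonged induction came from lists that hold none of the chosen genes. AT5G48490, a relative of the systemic resistance gene DIR1, read 1412 and 1509 in control, 1073 and 805 after prolonged, and 1391 and 1392 after temporal induction. Its log2 difference after prolonged induction was −0.65 ± 0.15 SE (adjusted p = 0.0243), and it did not pass when any array other than prolonged replicate 1 was left out (0.0522 to 0.0974), nor with median centring (0.0792). AT3G58550, of the GPI-anchored lipid transfer list, went from 230 and 268 to 107 and 131 (−1.07 ± 0.20 SE, adjusted p = 0.00899), and read 258 and 225 after temporal induction. AT5G01870, a type 1 gene, went from 164 and 143 to 39.8 and 65.5 (−1.58 ± 0.36 SE, adjusted p = 0.0245), with 66.3 and 122 after temporal induction. AT3G58550 did not pass without control replicate 2 or prolonged replicate 1 (adjusted p = 0.0540 and 0.0564), and AT5G01870 not without control replicate 1 or 2 or prolonged replicate 1 (0.101, 0.0531 and 0.148). None of these 3 passed between the inductions (adjusted p = 0.475, 0.145 and 0.820).

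Among the brightest genes of the remaining lists, AT2G18370 (type 1), AT1G62790 (GPI-anchored) and AT5G55450 (listed as anther lipid transfer-like) passed in no comparison. Their log2 differences from control were −0.39, 0.08 and 0.29 after prolonged and 0.06, 0.26 and −0.26 after temporal induction. AT5G62080 of the anther list rose from 11.2 and 12.6 to 82.1 and 127 after prolonged and to 125 and 111 after temporal induction (adjusted p = 0.00128 and 0.00227). Its rise after temporal induction did not pass without temporal replicate 1 or 2 (0.0686 and 0.0544). Without the intensity trend, 3 of the 30 genes passed after prolonged induction (AT4G12490, AT4G12500 and AT5G62080), and limma called 0 after temporal induction, with 7 at an unadjusted p under 0.05. The share of all probe sets in that setting was not counted. None of the 5 listed seed 2S albumin genes had a named probe set.

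**Figure D4:**
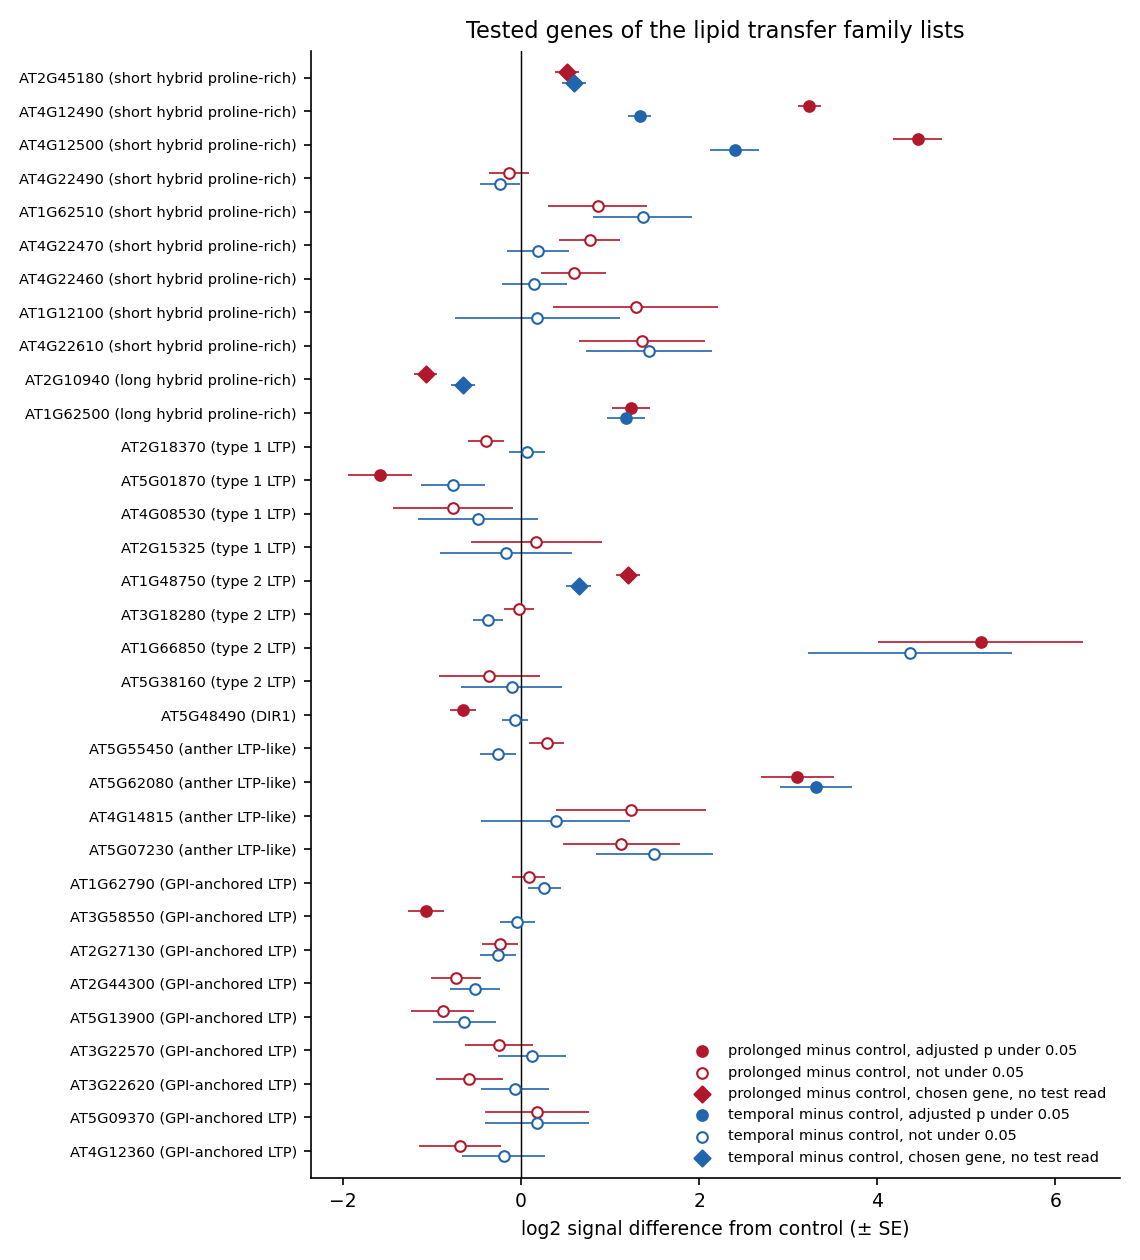
Log2 signal difference from control (x axis, with SE bars) of the 33 tested genes of the lipid transfer lists, after prolonged (red) and temporal (blue) induction. Filled circles passed an adjusted p of 0.05 and diamonds are the chosen genes, for which no test is read. AT2G10940 and AT1G62500, both long hybrid proline-rich, lie on opposite sides of 0.

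Levels of tissue markers are given beside these values. RCA read 9929 and 8959 after prolonged and 11299 and 11179 after temporal induction. Its log2 difference was −0.53 ± 0.14 SE after prolonged (adjusted p = 0.0443) and −0.28 ± 0.14 SE after temporal induction (0.391), in the same order of groups as AT2G10940. RCA did not pass under 10 of 15 other settings, among them the omission of control replicate 1 (adjusted p = 0.118), of prolonged replicate 2 (0.106) and of either temporal array (0.125 and 0.121). The summed signal of the 4 measured root markers of 9 listed was 4710 to 5308 in control, 3006 to 4089 after prolonged and 4063 to 4200 after temporal induction. Most of this sum was PYK10 on every array (4006 and 4660 in control), so it mainly follows that gene. Of the 4, HRGP1 (AT3G54590, an extensin gene, read by a probe set that may cross-hybridise) fell after prolonged induction (−0.96 ± 0.20 SE, adjusted p = 0.0145). PYK10 had a difference of −0.45 ± 0.17 SE (0.169) and EXPA7 (AT1G12560, a root hair expansin gene) one of −1.36 ± 0.42 SE (0.0834). The dimmest of the 4 differed from control by −1.93 ± 0.54 SE after prolonged (0.0575) and −0.15 ± 0.54 SE after temporal induction (0.943). HRGP1 did not pass without control replicate 1 or prolonged replicate 1 (0.0662 and 0.0753), nor without the intensity trend (0.190). ATA27 (AT1G75940), an anther gene and the only measured one of 5 anther and pollen markers, rose from 3.98 and 20.5 to 89.7 and 116 after prolonged induction (adjusted p = 0.0126), but did not pass without prolonged replicate 1 or 2 (0.0854 and 0.108) or without the intensity trend (0.139). Its control signal lay under the filter's limit, so it entered the test through the induced groups. After temporal induction ATA27 read 75.0 and 69.7 (adjusted p = 0.0504). Of 6 defence markers 2 had a named probe set, and the 1 tested, PDF1.2 (AT5G44420), passed in no comparison. The part of these tissues, and of the actin 3' to 5' ratio, in the values of the chosen genes was not tested.

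Chromosomal neighbours, taken by position within 2 protein-coding genes in the TAIR10.1 annotation, had a named probe set for AT2G45180 and AT2G10940 only. ATG8E (AT2G45170), an autophagy gene next to AT2G45180, read 117 and 92.3 in control, 282 and 201 after prolonged, and 207 and 218 after temporal induction. It rose by 1.20 after prolonged (adjusted p = 0.00937) and 1.03 after temporal induction (0.0397) on the log2 scale. Without prolonged replicate 1 the former did not pass (0.0811), nor did the latter without control replicate 2, temporal replicate 1 or temporal replicate 2 (0.135, 0.216 and 0.251). Without the intensity trend neither passed (0.140 and 0.299), and the temporal call was also lost with median centring (0.0741) and with no filter (0.0621). AT2G10930, near AT2G10940, fell after temporal induction from 122 and 128 to 30.2 and 58.0 (−1.58, adjusted p = 0.0461) and read 85.9 and 116 after prolonged induction (−0.32, adjusted p = 0.680). Its fall did not pass when any 1 of the 6 arrays was left out (0.0640 to 0.276), with no filter (0.0777), without the intensity trend (0.287) or with only the 2 groups fitted (0.0728), and the order of its groups was not that of AT2G10940. AT2G10950, the other neighbour, overlapped with control in prolonged arrays and passed in no comparison.

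**Figure D5:**
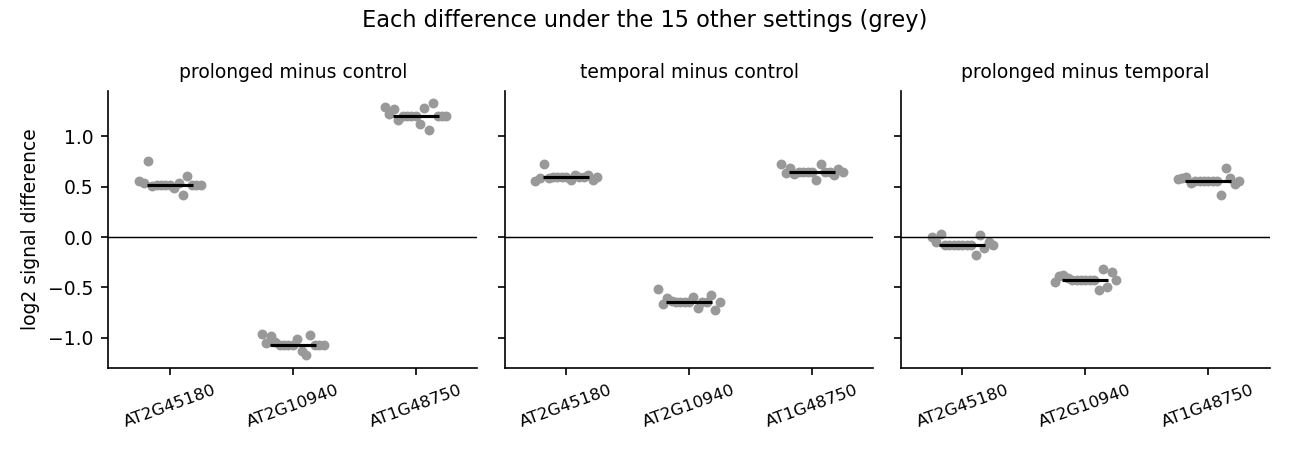
Log2 signal difference (y axis) of each gene as reported (black bar) and under 15 other settings (grey points), for the 3 comparisons. The points of the differences from control lie between −1.17 and 1.33 and on one side of 0 for each gene. Of these 90, 42 are equal to the reported value by construction. With an offset or an array left out the side was also fixed, since induced and control arrays did not overlap. The points of AT2G45180 between the inductions lie on both sides of 0.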

How the data were processed

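The authors deposited 1 MAS5 intensity signal per probe set and array, made in GCOS per the submitters' processing notes, with versions not given in the sources used here. Labelling followed the one-cycle protocol, per the labels' protocols. The table held 22810 probe sets. The 64 Affymetrix controls were left out, and 13513 of the others carried 1 gene symbol, of which 13436 matched a TAIR10.1 gene. Of the rest, 503 carried several symbols and 8730 none, and these were not assigned to a listed gene. Sequences and promoter motifs were not analysed here.

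After a log2 transform, probe sets in the lowest 30% by mean were dropped, which left 15922. The model, with all 6 arrays and an intensity trend, was limma's (version 3.58.1, under R 4.3.3), with 3 residual and 7.96 prior degrees of freedom. P-values were adjusted by Benjamini-Hochberg over all tested probe sets, with a threshold of 0.05. For several probe sets of a gene the brightest stood for it. The number of arrays limits precision.

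The chosen genes and all lists were set with earlier results of these data known. Genes were named by a written rule: every list gene that passed without overlap of arrays (up to 12 per comparison), the 2 brightest tested genes of each family list and the 3 brightest of each marker list, and, per chosen gene, the 3 most correlated of the named probe sets in the top 10% of mean signal. Neighbours were added by position. Alternatives were 3 scalings, an offset of 27.7, 2 filters, no trend, 2-group fits, a replicate block and each array left out. The fit was tested on simulated data. Figures used matplotlib 3.10.9.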

Additional observations from a re-analysis of the deposited data

Results flagged for a closer look

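A difference between the inductions, tested directly, was found for 2 listed relatives of AT2G45180, where 14 of 15922 probe sets (0.0879%) passed. Their list was written with earlier results of these data known, so this is no independent support. The control signal of AT4G12500 was under the filter's limit (geometric mean 22.2), so it entered the test through the induced groups. Neither of the 2 passed without the intensity trend (limma, adjusted p = 0.470 and 0.577). The call of AT4G12500 also depended on each of the 4 induced arrays, as given above. AT4G12490 was higher after prolonged than temporal induction by 1.90 on the log2 scale (signals 1939 and 2028 against 554 and 507), and AT4G12500 by 2.06 (398 and 597 against 119 and 116). None of the 3 chosen genes met this criterion, and groups of 2 arrays are too small for the search for outlying samples.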

How the results depend on the processing

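Of 90 recomputed differences of the chosen genes from control (15 alternatives, 3 genes, 2 comparisons), 42 cannot differ from the reported value by construction (other filters, trend, block, fits of 2 groups, or an array of the third group left out). The other 48 kept their sign. With an offset or an array left out the sign was fixed in advance, since induced and control arrays did not overlap. Only the 3 scalings could have turned it. Cyclic loess gave AT2G45180 differences of 0.75 (prolonged) and 0.72 (temporal), and quantile normalization gave AT2G10940 −0.52 after temporal induction. With 1 array left out at a time, the prolonged minus control difference ran from 0.42 to 0.61 for AT2G45180 and from 1.07 to 1.33 for AT1G48750. Between the inductions the sign of AT2G45180 turned with cyclic loess (0.030) and without prolonged replicate 2 (0.017), and was −0.18 without prolonged replicate 1. Of the 30 lipid transfer genes besides the chosen ones, 8 passed after prolonged induction, 4 after temporal induction and 2 between the inductions. Of all tested probe sets 6.95%, 2.42% and 0.0879% passed. Without the intensity trend limma called 3, 0 and 0 of the 30 (16, 7 and 5 at an unadjusted p under 0.05). Shares of all probe sets were not counted under the other settings or at an unadjusted p. The counts under those settings are therefore not set against all probe sets. With 1 array left out the counts were 5 to 7, 2 to 5 and 1 to 2. The lowest came without control replicate 2 after prolonged induction, without either temporal array after temporal induction, and without any 1 of the 4 induced arrays between the inductions. The planned counts also hold the chosen genes, whose calls against control support nothing, and were 11, 7 and 2, with 3, 0 and 0 without the trend, 4 after temporal induction with median centring, and 7 to 9, 2 to 7 and 1 to 2 with 1 array left out. The cause was not tested. A lone array is assumed to vary like the other groups. The replicate block, with numbers that pair nothing in the labels and deviations correlated at only −0.0599 to 0.0125 across probe sets, gave 8, 5 and 2 calls among the 30 genes and 11, 8 and 2 in the planned counts. In this balanced design it cannot move a difference between groups (1.20 for AT1G48750 after prolonged induction).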
